A study of Mus musculus with 6 samples.

Results

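The genes described here encode the enzymes by which activated macrophages use arginine, make tetrahydrobiopterin and make itaconate. They were *Arg1*, *Arg2*, *Nos2*, *Ass1*, *Asl*, *Odc1*, *Srm*, *Gch1* and *Acod1*, found by symbol in the deposited count table. All 9 were present among 19309 genes, and all 9 had enough counts to be tested. RNA was sequenced from M2c-polarized macrophages grown from the bone marrow of 3 sEH-/- and 3 wild-type mice. The sEH-/- mice carried a constitutive, global deletion of *Ephx2*, which encodes the soluble epoxide hydrolase (sEH), so the gene had been absent throughout development and in every cell type. The wild-type mice were age- and strain-matched littermates, and the methods give an age of 8 to 10 weeks and mostly female mice. The study also states that its work after a comparison of the sexes used females. The RNA sequencing is described after that statement. The study lists C57BL/6N mice and, for the deletion, the line Ephx2tm1.1Arte x Gt(ROSA)26Sortm16(Cre)Arte, without tying a strain to these libraries.

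Both groups received the same treatment. Monocytes were differentiated for 7 days with 15 ng/mL each of M-CSF and GM-CSF, M1-polarized with 10 ng/mL LPS plus 1 ng/mL IFN-γ, and repolarized with 10 ng/mL TGF-β1, the step that defines M2c cells in this study. The series description gives 24 h for the M1 step and 48 h with TGF-β1, whereas the methods give 12 h and either 24 or 48 h. No library without LPS, IFN-γ and TGF-β1 was analysed here, so the levels below describe cells that had seen all of them, and the comparison is between genotypes.

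Macrophages spend arginine along competing routes. Inducible nitric oxide synthase (*Nos2*), the enzyme typical of LPS and IFN-γ, turns arginine into nitric oxide and citrulline, and argininosuccinate synthase (*Ass1*) and argininosuccinate lyase (*Asl*) rebuild arginine from that citrulline. Arginase 1 (*Arg1*, cytosolic) and arginase 2 (*Arg2*, mitochondrial) split arginine into urea and ornithine, from which ornithine decarboxylase (*Odc1*) and spermidine synthase (*Srm*) make polyamines. GTP cyclohydrolase 1 (*Gch1*) starts the synthesis of tetrahydrobiopterin, a cofactor that nitric oxide synthases need, and *Acod1* encodes the mitochondrial enzyme that makes itaconate from the citrate cycle intermediate cis-aconitate.

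In the counts left after removal of duplicate reads, 7 of the 9 enzymes differed by less than 1.5-fold between genotypes over their whole 95% interval. *Arg1*, *Nos2* and *Acod1*, which are among these 7, had many counts for their length. *Arg1* counts hardly moved with library size (1112 to 1196). For these 3 genes the interval describes the counts and may not bound the change in transcript. None of the 9 enzymes was called in the main fit. A gene was called at a Benjamini-Hochberg adjusted p below 0.05 in edgeR's quasi-likelihood test together with a change of more than 1.5-fold. The study used these thresholds with DESeq2, and the DESeq2 fit made here called 1 member, *Arg2* (adjusted p = 0.0038). *Arg2* had the largest estimate, 2.78-fold higher in sEH-/- cells, but it rested on 2 of the 3 sEH-/- libraries. *Odc1* and *Srm*, the consecutive steps from ornithine to spermidine, were 1.25-fold and 1.30-fold lower with adjusted p just above 0.05. *Nos2*, *Arg1*, *Asl*, *Ass1*, *Gch1* and *Acod1* had estimates between −0.13 and 0.26 on the log2 scale. Among the surrounding genes, *Pts*, which encodes the enzyme after GTP cyclohydrolase 1, rose 1.61-fold, and the transcription factor gene *Myc* rose 2.72-fold.

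The genotype labels were checked first. *Ephx2* had 4, 2 and 1 counts in sEH-/- replicates 1 to 3 and 26, 49 and 57 counts in wild-type replicates 1 to 3. Library totals lay between 4400197 and 6096440 counts, a 1.39-fold range. All 10 macrophage markers on the fixed list were detected in every library, and their summed level was 2395 to 2958 CPM (counts scaled to library size) in sEH-/- and 2122 to 2677 CPM in wild-type libraries. All 10 had estimates above 0 (median 0.16 on the log2 scale), and none was called. Their summed level was lowest in the largest library of each genotype, sEH-/- replicate 1 and wild-type replicate 2. Of the 12 neutrophil markers, 9 were in the table and 3 had enough counts to be tested. Their summed level was 286 to 361 CPM in sEH-/- and 271 to 319 CPM in wild-type libraries. *S100a8* had 140, 147 and 117 counts in sEH-/- and 78, 112 and 112 counts in wild-type libraries, did not overlap in CPM and had a log2 fold change of 0.54 (adjusted p = 0.057), while the abundant *Mmp8* (1363 to 1516 counts) stood at 0.15 (adjusted p = 0.44) and *Prtn3* (9 to 36 counts) at −0.98 (adjusted p = 0.14). The other 6 had at most 10 counts in any library and were not tested. Of these 6, 3 (*Elane*, *Camp* and *Ngp*) were higher in CPM in each sEH-/- library than in any wild-type library. The same held for 11.8% of all tested genes. The erythroid markers *Klf1* and *Epor* had at most 11 counts. *Il7r* was the only one of 10 lymphocyte markers in the table, and it was abundant. It stood at 334 to 366 CPM in sEH-/- and 346 to 384 CPM in wild-type libraries, with a log2 fold change of −0.05. Among 8 dendritic cell markers in the table, *Clec9a* (96 to 232 counts) and *Zbtb46* (16 to 90 counts) were the highest and *Cd209a* was at 0 throughout. The 3 dendritic cell markers that were tested had estimates below 0 (median −0.31 on the log2 scale), and none was called. Of the 7 tested stromal and endothelial markers, 4 had estimates above 0 and 3 below (median 0.51 on the log2 scale), and none was called. Among them *Col1a1* and *Col1a2* stood highest in wild-type replicate 2 (121 and 171 counts) against 34 and 58 counts or fewer in the other libraries. The part of these markers in the results below was not tested. In bulk samples of this kind, fewer cells of a type and less RNA per cell cannot be told apart.

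One property of the counts bears on the most abundant members. Duplicate reads were removed before counting, and the counts of heavily covered genes grew less with library size than the totals did. Wild-type replicate 2 held 1.32 times the counts of wild-type replicate 1. Genes with at most 0.05 counts per exonic base in an average library had a median ratio of 1.44 between these libraries, whereas the 186 genes with 0.4 to 0.6 counts per base had a median ratio of 1.14. *Arg1* (0.516 counts per base), *Nos2* (0.490) and *Acod1* (0.458) lay in that upper class, in which 0.538% of genes were called. The other members had 0.039 to 0.155 counts per base. Coverage of the macrophage markers ranged from 0.136 counts per base for *Itgam* to 0.886 for *Cd68*. The part of coverage in the results was not tested beyond an alternative that corrects the counts for a ceiling of 1 count per base.

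Compared between genes as CPM per kilobase of exonic sequence, the members fell into an abundant and a less abundant class. In wild-type cells *Nos2* stood at 97.5 ± 0.70 CPM per kilobase (SD, n = 3), *Arg1* at 95.5 ± 12.8 and *Acod1* at 81.5 ± 9.52. *Nos2* was thus above 99.4% of tested genes, *Arg1* above 99.3% and *Acod1* above 98.8%. The ranges of these 3 enzymes overlapped from one to the next. Within each wild-type library, however, *Acod1* was below both others, at 0.830, 0.849 and 0.884 of *Arg1* in replicates 1 to 3. *Nos2* was below *Arg1* in replicate 1 (ratio 0.893) and above it in replicates 2 and 3 (1.16 and 1.05). The order of *Nos2* and *Arg1* was thus not resolved.

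*Srm* followed at 32.3 ± 1.36 CPM per kilobase and *Odc1* at 31.6 ± 1.18. Their ranges also overlapped, with *Srm* slightly above *Odc1* in each wild-type library. *Ass1* stood at 27.3 ± 1.28, *Asl* at 13.9 ± 1.01 and *Gch1* at 11.7 ± 0.210 CPM per kilobase, and each of these was separate from its neighbours. *Arg2* was lowest at 3.95 ± 0.619 CPM per kilobase, above 27.9% of tested genes. In sEH-/- cells the same 3 genes came first, *Arg1* at 104 ± 15.8, *Acod1* at 94.7 ± 4.88 and *Nos2* at 89.2 ± 14.7 CPM per kilobase, again with overlapping ranges. The order depends on the length used: scaled by the longest annotated transcript, wild-type *Arg1* (144 ± 19.3) no longer overlapped *Nos2* (103 ± 0.74), and *Odc1* came before *Ass1* and *Srm*.

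**Figure D1:**
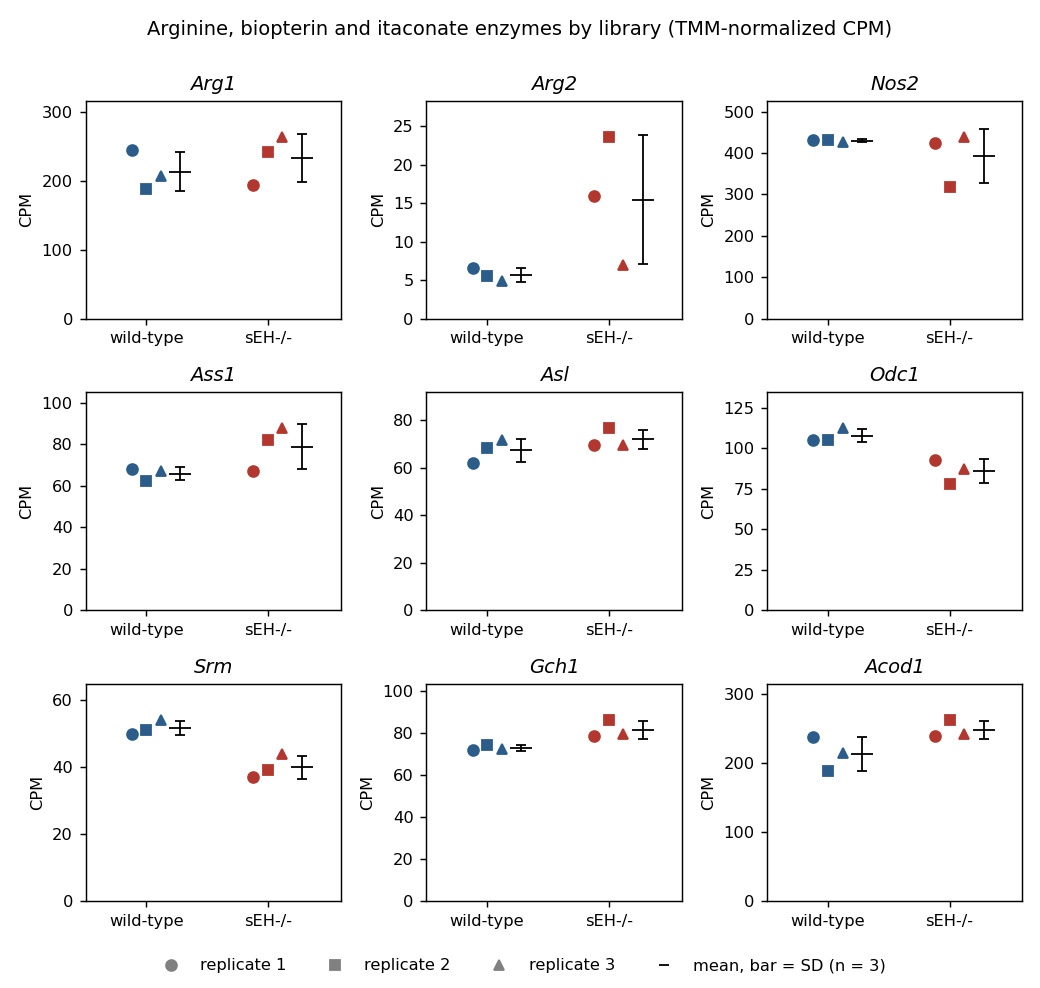
TMM-normalized CPM of the 9 enzyme transcripts in each library, with wild-type in blue and sEH-/- in red; marker shapes give the replicate number and the black bar the mean with its SD (n = 3). Each axis starts at 0 and has its own scale. The 3 red points of *Odc1* and *Srm* lie below the 3 blue points, and *Arg2* shows 2 high sEH-/- libraries with replicate 3 next to the wild-type range.

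The first question was whether the arginine-splitting enzymes differed between genotypes. *Arg1* (ENSMUSG00000019987, mm10 chr10:24915221-24927484, minus strand) measured 194, 241 and 263 CPM in sEH-/- replicates 1 to 3 and 244, 188 and 206 CPM in wild-type replicates 1 to 3. The genotypes overlapped over most of their range, with sEH-/- replicate 3 the highest and wild-type replicate 2 the lowest. The log2 fold change of sEH-/- over wild-type was 0.13 (SE 0.12, 95% interval −0.14 to 0.40, adjusted p = 0.58). The underlying counts hardly moved at all, 1137, 1196 and 1136 in the sEH-/- group against 1112, 1163 and 1151 in the wild-type group, a coefficient of variation of 2.49% where the library totals varied by 12.8%. *Arg1* CPM was lowest in the largest library of each genotype, sEH-/- replicate 1 and wild-type replicate 2. After correction for the ceiling the estimate was 0.15 (adjusted p = 0.54), or 0.17 (adjusted p = 0.47) with the longest transcript as the length.

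*Arg2* (ENSMUSG00000021125, chr12:79130777-79156301, plus strand) behaved differently. It had 93, 117 and 30 counts in sEH-/- replicates 1 to 3, or 15.9, 23.6 and 6.94 CPM. Wild-type replicates 1 to 3 had 30, 34 and 27 counts, or 6.58, 5.51 and 4.83 CPM. Replicates 1 and 2 of the sEH-/- group were well above all wild-type libraries, while replicate 3 exceeded the highest of them by less than its counting error (exact 95% Poisson interval 4.68 to 9.91 CPM, an interval for the counting of reads alone).

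For *Arg2* the log2 fold change was 1.47 (SE 0.38, 95% interval 0.64 to 2.31), the unadjusted p 0.0027 and the adjusted p 0.055 in edgeR's test. The call depended on the fit. DESeq2 gave an adjusted p of 0.0038 with the same estimate, and limma-voom gave 0.093. Without sEH-/- replicate 3 the estimate was 1.81 and the adjusted p 0.0079, and without sEH-/- replicate 2 it was 1.07 with an adjusted p of 0.18. In each wild-type library *Arg2* stood far below *Arg1* per kilobase, at a ratio of 0.037 to 0.046. The ratio was 0.128 and 0.153 in sEH-/- replicates 1 and 2 and 0.041 in replicate 3.

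**Figure D2:**
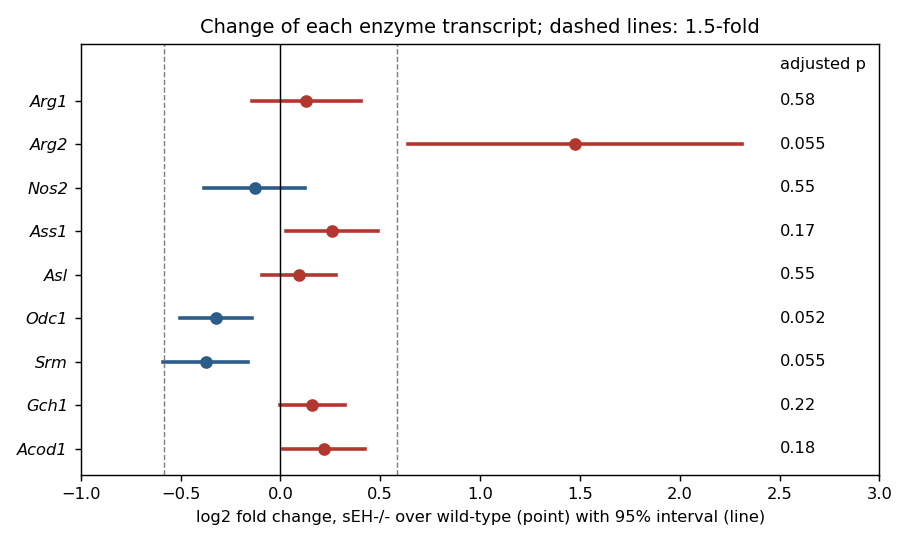
Log2 fold change of each enzyme transcript in sEH-/- over wild-type macrophages (point) with its 95% interval from edgeR's quasi-likelihood fit (line), and the adjusted p over all tested genes at the right; dashed lines mark 1.5-fold in either direction. The interval of *Arg2*, 0.64 to 2.31, lies wholly beyond the right dashed line with an adjusted p of 0.055, and those of *Odc1* and *Srm* lie left of 0.

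The nitric oxide branch showed no called difference. *Nos2* (ENSMUSG00000020826, chr11:78920787-78960254, plus strand) measured 423, 319 and 439 CPM in sEH-/- replicates 1 to 3. In the wild-type libraries it varied by little, at 432, 432 and 427 CPM. The single low library was sEH-/- replicate 2, and the other two sEH-/- libraries lay on either side of the wild-type values. The log2 fold change was −0.13 (SE 0.11, 95% interval −0.38 to 0.13, adjusted p = 0.55). Without sEH-/- replicate 2 it was 0.020.

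Citrulline recycling did not differ by the test either. *Ass1* (ENSMUSG00000076441, chr2:31470207-31520672, plus strand) measured 66.9, 82.2 and 87.7 CPM in sEH-/- and 68.0, 62.4 and 67.3 CPM in wild-type libraries. Replicates 2 and 3 of the sEH-/- group were above every wild-type library and replicate 1 was within their range. Its log2 fold change was 0.26 (SE 0.10, 95% interval 0.03 to 0.49, adjusted p = 0.17). *Asl* (ENSMUSG00000025533, chr5:130011258-130029247, minus strand) measured 69.7, 76.5 and 69.7 CPM in sEH-/- against 62.1, 68.2 and 71.7 CPM in wild-type libraries. These values overlapped, with an estimate of 0.09 on the log2 scale (SE 0.08, adjusted p = 0.55).

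Polyamine synthesis gave the members that were lower in every sEH-/- library. *Odc1* (ENSMUSG00000011179, chr12:17544794-17551505, plus strand), the first and tightly regulated step, measured 92.7, 78.0 and 87.0 CPM in sEH-/- and 105, 105 and 112 CPM in wild-type libraries. The genotypes did not overlap. On the log2 scale the difference was −0.32 (SE 0.08, 95% interval −0.50 to −0.14), with an adjusted p of 0.052.

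*Srm* (ENSMUSG00000006442, chr4:148591503-148594993, plus strand) measured 37.1, 39.1 and 43.7 CPM in sEH-/- against 49.8, 51.0 and 54.0 CPM in wild-type libraries. Here too all sEH-/- libraries were below all wild-type libraries. The difference was −0.37 on the log2 scale (SE 0.10, 95% interval −0.59 to −0.16), with an adjusted p of 0.055. Over 19 alternative fits the estimates ranged from −0.38 to −0.24 for *Odc1* and from −0.43 to −0.32 for *Srm*. The adjusted p fell below 0.05 in 4 of the 19 for each gene, and neither gene was called in any of them, since both estimates stayed below 1.5-fold.

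*Gch1* (ENSMUSG00000037580, chr14:47153895-47189413, minus strand) measured 78.7, 86.4 and 79.9 CPM in sEH-/- and 72.0, 74.5 and 72.6 CPM in wild-type libraries. All sEH-/- values exceeded all wild-type values, by a small step, and the log2 estimate was 0.16 (SE 0.07, adjusted p = 0.22). *Acod1* (ENSMUSG00000022126, chr14:103046977-103056573, plus strand) measured 239.3, 263 and 243 CPM in sEH-/- and 238.3, 188 and 214 CPM in wild-type libraries. Wild-type replicate 1 all but reached the lowest sEH-/- library, so the absence of overlap rests on a gap of about 1 CPM. The log2 fold change of *Acod1* was 0.22 (SE 0.09, 95% interval 0.01 to 0.42, adjusted p = 0.18). Tested genes with 0.4 to 0.6 counts per base, the class of *Acod1* and *Arg1*, had a median log2 fold change of 0.09. *Gch1* and *Acod1* are both on chromosome 14, which also carries the deleted *Ephx2*, at distances of 18.9 and 36.9 Mb from it.

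The members were then set against the whole transcriptome. In edgeR's test 0 of 9 members were called, against 2.61% of the 13785 tested genes (1.51% higher and 1.1% lower in sEH-/-). None reached an adjusted p below 0.05 at any fold, against 4.01% of all tested genes. With shares this small, 0 of 9 cannot tell the members from other genes. DESeq2 called 1 member (*Arg2*) and limma-voom called 0. An unadjusted p below 0.05 was found for 5 of 9 members, 3 of them higher (*Arg2*, *Ass1* and *Acod1*) and 2 lower (*Odc1* and *Srm*), and for 23.4% of all tested genes. Values did not overlap between genotypes for 5 members, against 26.3% of all tested genes. Of these, *Arg2*, *Gch1* and *Acod1* were higher (11.8% of all genes) and *Odc1* and *Srm* lower (14.5% of all genes). The median log2 fold change of the members was 0.13, that of all tested genes 0.00.

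**Figure D3:**
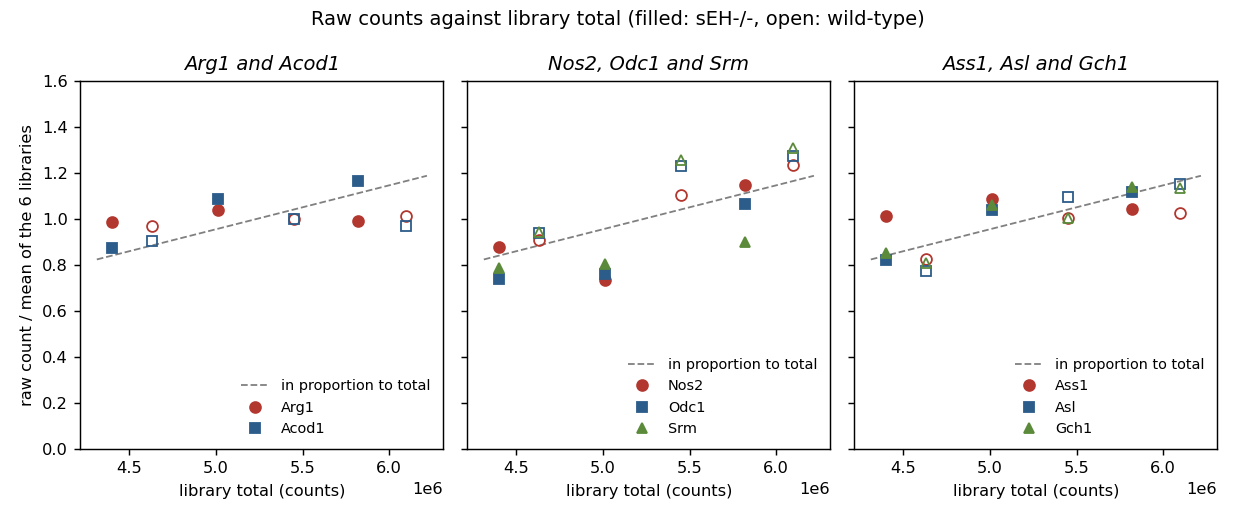
Raw count of 8 enzyme transcripts divided by its mean over the 6 libraries, against the library total in counts; filled symbols are sEH-/-, open symbols wild-type, and the dashed line is a count in proportion to the total. *Arg1* stays close to 1 at every total (1112 to 1196 counts), whereas *Nos2*, *Odc1* and *Srm* tend to be higher at larger totals, with the filled *Odc1* and *Srm* symbols below the line. *Arg2* is left out for its wide spread.

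Because *Nos2* and the arginases compete for arginine, ratios were formed within each library, where the scaling to library size cancels. *Arg1* counts hardly moved with the total, so ratios over *Arg1* can still follow it. *Nos2* over *Arg1* and *Odc1* over *Arg1* were highest in the largest library of each genotype, sEH-/- replicate 1 and wild-type replicate 2. The part of library size in these ratios was not tested beyond the ceiling correction. *Nos2* over *Arg1*, per kilobase, was 1.10, 0.669 and 0.842 in sEH-/- replicates 1 to 3 and 0.893, 1.16 and 1.05 in wild-type replicates 1 to 3. The ratios overlapped, and the mean log2 difference of −0.27 had an exact two-sided permutation p of 0.3 (n = 3 against 3, where 0.1 is the smallest p possible). The difference was −0.09 without sEH-/- replicate 2 and −0.45 without sEH-/- replicate 1. *Acod1* over *Arg1* differed by 0.10 on the log2 scale (exact permutation p = 0.6).

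*Gch1* over *Nos2* was 0.131, 0.191 and 0.128 in sEH-/- against 0.118, 0.122 and 0.120 in wild-type libraries, higher in each sEH-/- library. *Ass1* over *Nos2* was 0.289, 0.471 and 0.366 against 0.288, 0.264 and 0.288, with sEH-/- replicate 1 next to the wild-type values. The log2 differences were 0.30 for *Gch1* over *Nos2* and 0.39 for *Ass1* over *Nos2*, each with the smallest exact permutation p possible, 0.1. The high value in both belonged to sEH-/- replicate 2, the library with low *Nos2*, and without it the differences were 0.12 and 0.22. Without sEH-/- replicate 1 the difference in *Ass1* over *Nos2* was 0.57, and after the ceiling correction its exact permutation p was 0.3. *Odc1* over *Arg1* differed by −0.45 and *Odc1* over *Sat1*, which encodes the first enzyme of polyamine breakdown, by −0.32 (exact permutation p = 0.2 for each). *Arg2* over *Arg1* differed by 1.17 (exact permutation p = 0.3). After Benjamini-Hochberg adjustment over the 7 ratios, p was 0.35 for 6 of them and 0.60 for *Acod1* over *Arg1*.

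Promoter sequence was at hand for 4 of the 9 members (*Ass1*, *Odc1*, *Gch1* and *Acod1*), as RefSeq windows from 250 bases before to 50 bases after the transcription start on GRCm38.p6, the mm10 assembly. Both strands were searched for the interferon-stimulated response element, the NF-kB site, the E-box CACGTG recognised by Myc, and the Smad box GTCT. The windows of *Gch1* and *Ass1* are shown because they alone among the 4 held one of the rarer motifs, an NF-kB site in *Gch1* (in 8.46% of 32841 promoter windows) and an E-box in *Ass1* (in 7.15%). Capitals mark these matches.
*Gch1*, chr14:47189364-47189663, minus strand: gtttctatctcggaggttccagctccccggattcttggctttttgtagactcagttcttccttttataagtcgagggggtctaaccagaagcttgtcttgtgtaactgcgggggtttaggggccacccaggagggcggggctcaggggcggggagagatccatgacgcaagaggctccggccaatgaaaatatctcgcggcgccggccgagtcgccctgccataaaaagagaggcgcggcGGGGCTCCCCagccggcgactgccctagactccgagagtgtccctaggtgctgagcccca
*Ass1*, chr2:31470020-31470319, plus strand: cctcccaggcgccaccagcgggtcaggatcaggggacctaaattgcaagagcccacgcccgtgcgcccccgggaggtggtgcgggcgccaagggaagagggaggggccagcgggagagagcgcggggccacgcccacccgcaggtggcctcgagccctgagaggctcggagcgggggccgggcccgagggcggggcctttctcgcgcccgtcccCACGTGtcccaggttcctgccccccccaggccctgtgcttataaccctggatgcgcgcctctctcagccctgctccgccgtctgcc

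The NF-kB site of *Gch1* occupied bases −10 to −1 and the E-box of *Ass1* bases −36 to −31, counted from the first transcribed base as 0. The short Smad box occurred in all 4 windows, as in 88.0% of all windows, with 4 matches in *Gch1*, 2 in *Acod1* and 1 each in *Ass1* and *Odc1*. No match to the interferon-stimulated response element (in 3.44% of all windows) lay within these 4 windows. A match describes the letters and is not a measured binding site. *Gch1* and *Ass1*, the genes with these motifs, had log2 fold changes of 0.16 and 0.26, neither called.

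The genes around the 9 enzymes were read through 9 lists of transporters, cofactor and polyamine enzymes, citrate cycle enzymes, transcription factors and genes that IL-4 induces in M2a macrophages. Of 126 listed genes 111 were tested. Among them 4 were called (3.60%, against 2.61% of all tested genes), *Nos1*, *Pts* and *Myc* higher and *Pparg* lower, and the median log2 fold change was 0.02.

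The call nearest to the members was *Pts*, which encodes 6-pyruvoyltetrahydropterin synthase, the step after *Gch1*. It had 219, 220 and 202 counts in sEH-/- and 130, 155 and 146 counts in wild-type libraries. Every sEH-/- library was above every wild-type library, although sEH-/- replicate 3 was the smallest library of all. *Pts* rose by 0.69 on the log2 scale (SE 0.12, adjusted p = 0.021). Of the 8 tested genes of tetrahydrobiopterin synthesis and recycling it was the only one called, 5 were above 0 and 3 below, and the list's median was 0.03.

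The third step of that pathway, sepiapterin reductase (*Spr*), had a log2 fold change of −0.07 (adjusted p = 0.75). *Qdpr*, which regenerates the cofactor, and *Akr1b3*, an aldose reductase, were the most abundant members of that list, at 0.03 and 0.11 (adjusted p = 0.88 and 0.55). *Gchfr*, encoding the feedback regulator of GTP cyclohydrolase 1, had 4 counts over all 6 libraries and was not tested. DESeq2 and limma-voom also called *Pts* (adjusted p = 0.0027 and 0.030). Its adjusted p passed 0.05 when a library was left out in 3 of 6 cases. It was 0.061 without sEH-/- replicate 2, and 0.12 and 0.12 without wild-type replicates 2 and 3 in turn. Over all 6 cases the estimate stayed between 0.63 and 0.78. Most calls in the data were lost in these 3 fits, where all tested genes gave 96, 25 and 6 calls, against 360 in the main fit.

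*Myc*, a transcription factor known to drive *Odc1* and *Srm* in growing cells, had 117, 79 and 53 counts in sEH-/- and 31, 24 and 41 counts in wild-type libraries. All sEH-/- libraries were higher, with replicate 1 the highest. *Myc* rose by 1.44 (SE 0.27, adjusted p = 0.027), while *Odc1* and *Srm* stood at −0.32 and −0.37. *Pparg*, the nuclear receptor that acts on *Arg1*, had 105, 79 and 99 counts in sEH-/- and 111, 227 and 194 counts in wild-type libraries. It fell by 0.77 (SE 0.19, adjusted p = 0.048), with wild-type replicate 1 close to the sEH-/- counts, and limma-voom gave an adjusted p of 0.052. Both calls were lost when sEH-/- replicate 2 or either of wild-type replicates 2 and 3 was dropped, with adjusted p of 0.061, 0.12 and 0.12 for *Myc* and 0.16, 0.22 and 0.19 for *Pparg*. *Pparg* was also lost without sEH-/- replicate 1 (adjusted p = 0.065).

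Of the 18 tested transcription factors 12 had estimates above 0 and 6 below, with a median of 0.07. The most abundant were *Stat2*, a carrier of the interferon signal, at 0.41 (2311, 2149 and 1623 against 1549, 1643 and 1670 counts, adjusted p = 0.051) and *Hif1a*, the hypoxia factor, at 0.12 (adjusted p = 0.51).

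**Figure D4:**
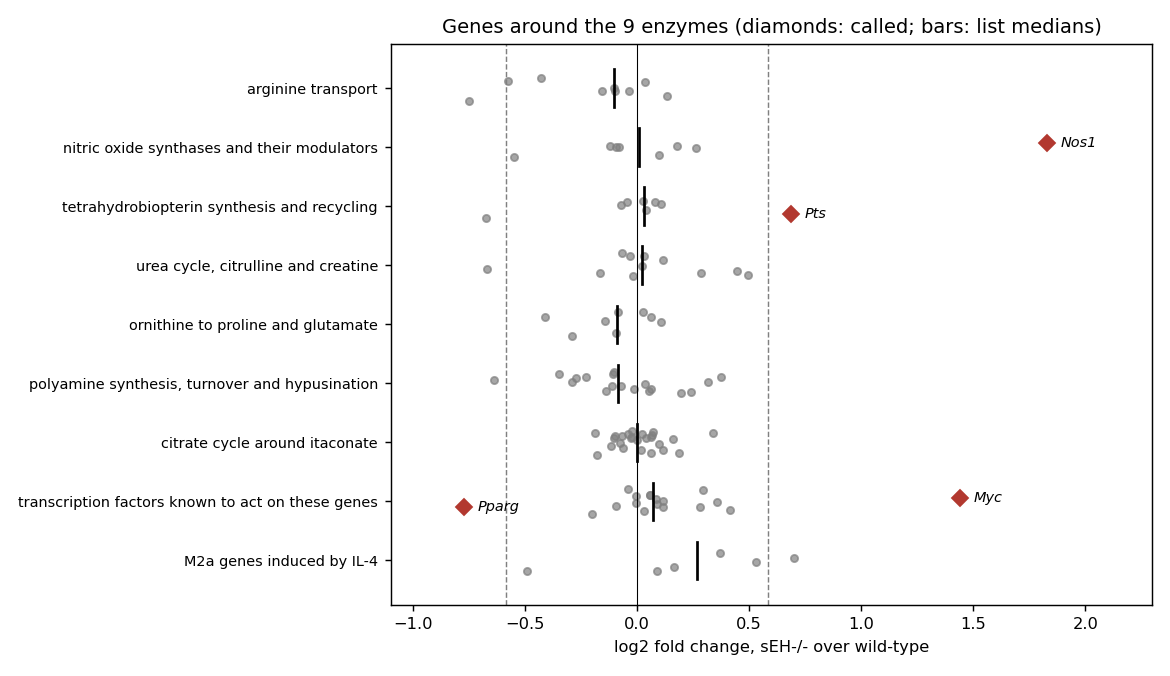
Log2 fold change of sEH-/- over wild-type for the 111 tested genes of the 9 lists, one point per gene, with black bars for list medians and red diamonds for the 4 called genes; dashed lines mark 1.5-fold and vertical scatter within a list has no meaning. List medians lie between −0.10 and 0.27, and only *Nos1*, *Pts*, *Myc* and *Pparg* are marked as called.

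The nitric oxide list held the third higher call, *Nos1*, the neuronal type synthase, on very few reads. It had 14, 11 and 9 counts in sEH-/- and 3, 4 and 3 counts in wild-type libraries, and rose by 1.83 on the log2 scale (SE 0.38, adjusted p = 0.033). At 0.54 to 2.39 CPM it lay far below *Nos2* (319 to 439 CPM), and DESeq2 gave an adjusted p of 0.16. When sEH-/- replicate 2 was dropped the adjusted p was 0.090, and dropping wild-type replicates 2 and 3 in turn gave 0.16 and 0.16. The other 7 tested genes of that list were not called, the most abundant being *Nosip*, which encodes a protein that binds the endothelial synthase (0.18, adjusted p = 0.29), and *Prmt5*, a protein arginine methyltransferase (−0.12, adjusted p = 0.41).

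Arginine transport did not differ by the test. None of 9 tested genes was called, 2 were above 0 and 7 below, and the median was −0.10. The importer *Slc7a2* (CAT2), which supplies arginine to activated macrophages, had 4396, 3795 and 4393 counts in sEH-/- and 4416, 5074 and 4479 counts in wild-type libraries, or −0.03 on the log2 scale (SE 0.14, adjusted p = 0.91). At 0.484 counts per base it shared the high coverage of *Nos2* and *Arg1*. *Slc3a2*, the heavy chain of several amino acid exchangers, stood at 0.03 (adjusted p = 0.82).

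Polyamine genes other than *Odc1* and *Srm* gave 0 calls among 18 tested, with 7 above 0, 11 below and a median of −0.09. The most abundant were *Azin1*, an activator of ornithine decarboxylase (−0.07, adjusted p = 0.60), and *Atp13a2*, a lysosomal polyamine exporter (0.24, adjusted p = 0.20). *Sms*, which encodes spermine synthase, the step after *Srm*, was at 0.03 (adjusted p = 0.87), and *Amd1*, which supplies the aminopropyl donor to both synthases, at −0.11 (adjusted p = 0.62). *Dhps*, the enzyme that uses spermidine to modify the translation factor eIF5A, had 352, 257 and 228 counts in sEH-/- and 295, 437 and 370 counts in wild-type libraries (−0.29, adjusted p = 0.081). These last 3 genes were named after their values were seen.

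The lists on either side gave 0 calls each. Among 11 tested genes of the urea cycle, citrulline and creatine the median was 0.02, with the creatine transporter *Slc6a8* at 0.02 (adjusted p = 0.89) and the purine enzyme *Adss* at −0.07 (adjusted p = 0.63) the most abundant. The 8 tested genes from ornithine to proline and glutamate had a median of −0.09, with ornithine aminotransferase *Oat* at −0.09 (adjusted p = 0.49) and the collagen prolyl hydroxylase subunit *P4ha1* at 0.06 (adjusted p = 0.69). The 25 tested citrate cycle genes around *Acod1* had a median of 0.00, with *Ogdh*, a subunit of the oxoglutarate dehydrogenase complex, at −0.03 (adjusted p = 0.86) and the cytosolic citrate lyase *Acly* at 0.10 (adjusted p = 0.47). The 6 tested genes that IL-4 induces had a median of 0.27, with *Chil3* at 0.09 (adjusted p = 0.77) and the mannose receptor *Mrc1* at 0.16 (adjusted p = 0.38), while the M2a marker *Retnla* had 0 to 6 counts.

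Transcripts whose profile over the 6 libraries came closest to a member were named by the root mean square difference between centred log2 CPM profiles, among 10276 other genes with at least 50 counts on average. For *Arg1* these were *Spp1* (0.017), *Fcer1g* (0.019) and *S100a11* (0.021). Like *Arg1*, all 3 were lowest in the largest library of each genotype. *Spp1* (0.684 counts per base) and *Fcer1g* (0.577) share the high coverage of *Arg1*, whereas *S100a11* had 0.274. For *Nos2* the closest were *Qsox1* (0.036), *Gpn3* (0.041) and *St3gal2* (0.045), all low in sEH-/- replicate 2. *Acod1* was followed most closely by *Usp12* (0.011), *Apobec3* (0.019) and *Csk* (0.026). These 3 genes had 0.152, 0.056 and 0.236 counts per base, against 0.458 for *Acod1*. They too were lowest in the largest library of each genotype. The closest to *Gch1* were *Kat5* (0.016), *Crot* (0.020) and *Tmed5* (0.023). The part of coverage in these profiles was not tested. Such likeness is common in 6 libraries, as 578 genes lay within 0.1 of *Arg1*, 179 of *Nos2*, 871 of *Acod1* and 1988 of *Gch1*.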

How the data were processed

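The authors deposited raw counts of reads per gene for 6 libraries (3 per genotype). The submitters' processing notes name Trimmomatic 0.39, STAR 2.7.7a, Picard 2.21.7, featureCounts 1.6.5 and DESeq2 1.30.0 with mm10, and the methods state strand-aware counting over exons after removal of duplicate, multi-mapping, ribosomal and mitochondrial reads. From these counts, edgeR 4.0.16 in R 4.3.3 (TMM, factors 0.982 to 1.03, glmQLFit and glmQLFTest, no covariates) was fitted to all 13785 genes with a mean above 5 counts, which hold 99.82% of all counts. The common dispersion corresponded to a biological coefficient of variation of 0.0866. Adjusted p-values are Benjamini-Hochberg over all tested genes. Standard errors were taken from the estimate and the root of its F statistic, and 95% intervals use the t quantile with edgeR's degrees of freedom. CPM uses TMM-scaled totals, and exonic lengths come from GENCODE M21 (19286 of 19309 identifiers found).

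Named genes are the 9 members, called genes and the 2 most abundant genes of each list, the 3 closest profiles of 4 members, and *Ephx2*; other genes were chosen after their values were seen. The members and lists were chosen with earlier results of these data known. The scripts were tested on simulated data. Alternatives were DESeq2 1.42.0, limma-voom (limma 3.58.1, also with cyclic loess), other scalings and filters, thinning, ceiling corrections, the log library total as covariate, a replicate block, glmTreat and leaving out each library. Each replicate is 1 mouse by the study's legend. The replicate numbers do not mark pairs in the labels. Replicates of each genotype differed from one another by more than counting noise (chi-square per degree of freedom 2.24 to 4.89), so none was merged. One of the motifs searched in the promoters is not reported here. The planned display of the arginase proteins was not made here.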

Additional observations from a re-analysis of the deposited data

How the results depend on the processing

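Counts of calls moved with the settings, while the estimates of the members kept their direction except for *Nos2*. The 9 members gave 1 call (*Arg2*) with DESeq2, with no filter on low counts and with a ceiling set by the longest transcript, and 0 to 1 when single libraries were left out. All genes gave 171 calls with the log library total as a covariate, 10 with glmTreat, 553 with no fold threshold and 6 to 625 with a library left out. The pathway lists gave 2 calls with at least 10 counts in every library, with thinning and with the covariate, 0 with glmTreat and 0 to 7 with a library left out. With the replicate number as a block, all genes gave 234 calls, the pathway lists 2 and the members 0. The labels do not mark the numbers as pairs. Same-numbered libraries of the genotypes correlated at −0.22, −0.46 and −0.06 in their deviations from the group means. With 3 libraries per group such deviations are not independent, so these values cannot decide whether samples were paired. Single estimates changed sign for *Nos2* without sEH-/- replicate 2 (0.020, range with a library left out −0.20 to 0.020) and for *Acod1* over *Arg1* without sEH-/- replicate 1 (−0.0012, range −0.0012 to 0.21). The cause of these shifts was not tested. The cyclic loess fit and the longest-transcript ceiling were chosen after seeing the data.

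There were 3 libraries per genotype, counts of 27 to 117 for *Arg2*, and a high coverage of *Arg1*, *Nos2* and *Acod1* after duplicate removal. A transcript that was not called is therefore not shown to be equal between genotypes. The smallest possible exact permutation p of 0.1 also kept every ratio above 0.05, so those p-values say nothing about stability.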

Other observations

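A few genes outside the naming rule, chosen after their values were seen, passed an adjusted p of 0.05 in edgeR's test below 1.5-fold. *Gatm*, which uses arginine for the first step of creatine synthesis, had 682, 683 and 457 counts in sEH-/- and 418, 471 and 495 counts in wild-type libraries. It rose by 0.49 on the log2 scale (SE 0.11, adjusted p = 0.036), and its CPM was higher in each sEH-/- library than in any wild-type library. *Aldh4a1*, a mitochondrial enzyme of proline breakdown, had 200, 160 and 143 counts against 186, 287 and 251 counts and fell by 0.41 (SE 0.10, adjusted p = 0.047). *Cd14*, the LPS co-receptor among the macrophage markers, had 1067, 1010 and 883 counts against 730, 760 and 760 counts and rose by 0.50 (adjusted p = 0.029). The arginine importer *Slc7a1* (CAT1) varied widely within both genotypes, with 345, 200 and 144 counts in sEH-/- and 230, 538 and 338 counts in wild-type libraries (−0.57, adjusted p = 0.15). *Azin2*, an antizyme inhibitor, had 141, 75 and 81 against 109, 208 and 183 counts (−0.64, adjusted p = 0.078).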
